A study of Mus musculus with 11 samples.

Results

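The 4 mouse Hox clusters, HoxA, HoxB, HoxC and HoxD, were examined in villus epithelium of the jejunum by chromatin immunoprecipitation and sequencing (ChIP-seq) of the transcription factors CDX2 and HNF4A and of nucleosomes carrying dimethylated lysine 4 of histone H3 (H3K4me2). Members were all peaks and nucleosomes inside fixed mm9 intervals: HoxA at chr6:52090000-52230000, HoxB at chr11:96040000-96240000, HoxC at chr15:102735000-102880000 and HoxD at chr2:74475000-74615000. A nucleosome entered a count when its score reached 52, where the score is 10 times the -log10 of a p-value per the file headers. This gave 504 members of 1367761 features in 10 lists, made up of 51 of 57382 factor peaks and 453 of 1310379 nucleosomes. HoxA held 194 members, HoxB 104, HoxC 76 and HoxD 130. Equal windows shifted by 1 Mb to either side, which together cover more sequence than the clusters, held 2196 features and served as background.

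Hox genes encode homeodomain transcription factors that give cells their position along the head to tail axis, and they lie in each cluster in the order in which they are used along it. The caudal-related factors, to which CDX2 belongs, are known regulators of Hox genes in the embryo, and in the adult intestine CDX2 maintains intestinal identity. HNF4A is a nuclear receptor of the gut and liver epithelium, and H3K4me2 marks promoters and enhancers.

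CDX2 was profiled in 2 wild-type libraries and 1 Hnf4a knockout library, and HNF4A in 1 wild-type and 1 Cdx2 knockout library. H3K4me2 had 1 library each from wild type, Cdx2 knockout, Hnf4a knockout and a pair of double knockouts. The double knockouts are named by their titles, Cdx2-Cdx1 and Cdx2-Hnf4a, because at least 1 other label of each library names the opposite second gene; every label has Cdx2 deleted. All ChIP samples carried the strain label 129xC57BL6 mixed background. Villi were released from jejunum with EDTA and kept on a filter that let crypts pass; formaldehyde fixation and, for unfixed villi, micrococcal nuclease are described without naming the libraries. DNA of several ChIP experiments was pooled for a library. The labels used here state no age, number of animals or driver of the gene deletions, nor whether separate mice gave the wild-type CDX2 libraries. An input sample was not analysed here.

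With 1 library in every group but wild-type CDX2, no test between genotypes was possible. Intervals (95%) cover the counting of called features only, and the read depth behind the lists is unknown. The intervals treat every feature as independent, but nucleosomes often lie in runs of neighbours, so the intervals can be too narrow. The 5 H3K4me2 lists held 245431 (wild type), 256794 (Cdx2 knockout), 250282 (Hnf4a knockout), 281957 (titled Cdx2-Cdx1) and 275915 (titled Cdx2-Hnf4a) nucleosomes at this score. The CDX2 lists held 12121 (wild-type library 1), 7441 (wild-type library 2) and 5768 (Hnf4a knockout) peaks, and the HNF4A lists 22376 (wild type) and 9676 (Cdx2 knockout). These lists differ in length, so a peak missing from a shorter list is not shown to be unbound. In bulk epithelium, fewer cells carrying a mark and less of it per cell cannot be told apart.

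By the RefSeq order (GRCm38.p6), HoxA runs from Hoxa2 to Hoxa13 with rising coordinate, and HoxB, HoxC and HoxD run the other way, from the genes numbered 13 to those numbered 1 or, in HoxC, 4. No gene could be placed on the mm9 positions, so peaks and nucleosomes are located by coordinate and by distance from the low end of the interval. Promoters of 22 of the 38 Hox genes considered were in the RefSeq promoter table (24 promoters, 250 bases before to 50 bases after the start). Of these, 10 belonged to HoxA, 3 to HoxB, 1 to HoxC and 10 to HoxD. The word TTTATG, part of the sequence that caudal proteins are known to bind, was found on either strand (reverse complement CATAAA) in 5 of the 24, those of Hoxa7, Hoxb8, Hoxd3, Hoxd4 and Hoxd11, against 11.9% of 32851 promoters in the table. The 3 promoters holding 2 matches each are shown 5′ to 3′ with the word in capitals, as an example of such sequence in each of 3 clusters. A match is a description of the letters and not a bound site, and whether 5 of 24 differs from 11.9% was not tested.
Hoxa7: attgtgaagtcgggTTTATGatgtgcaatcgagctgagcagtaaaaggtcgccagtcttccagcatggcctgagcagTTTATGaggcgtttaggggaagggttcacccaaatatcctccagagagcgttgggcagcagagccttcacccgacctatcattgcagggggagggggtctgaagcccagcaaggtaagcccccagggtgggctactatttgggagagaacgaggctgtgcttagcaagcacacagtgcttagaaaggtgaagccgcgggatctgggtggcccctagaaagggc
Hoxb8: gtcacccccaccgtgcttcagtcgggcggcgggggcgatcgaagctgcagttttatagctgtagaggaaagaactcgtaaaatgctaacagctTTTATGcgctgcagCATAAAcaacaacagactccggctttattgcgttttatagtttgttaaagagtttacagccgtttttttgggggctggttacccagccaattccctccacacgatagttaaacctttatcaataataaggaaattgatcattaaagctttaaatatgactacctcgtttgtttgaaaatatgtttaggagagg
Hoxd4: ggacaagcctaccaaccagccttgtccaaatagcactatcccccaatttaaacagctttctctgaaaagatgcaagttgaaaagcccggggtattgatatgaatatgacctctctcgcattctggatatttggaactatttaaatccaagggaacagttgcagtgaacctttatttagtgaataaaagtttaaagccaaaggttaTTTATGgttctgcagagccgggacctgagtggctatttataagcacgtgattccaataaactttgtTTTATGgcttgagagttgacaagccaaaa

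**Figure D1:**
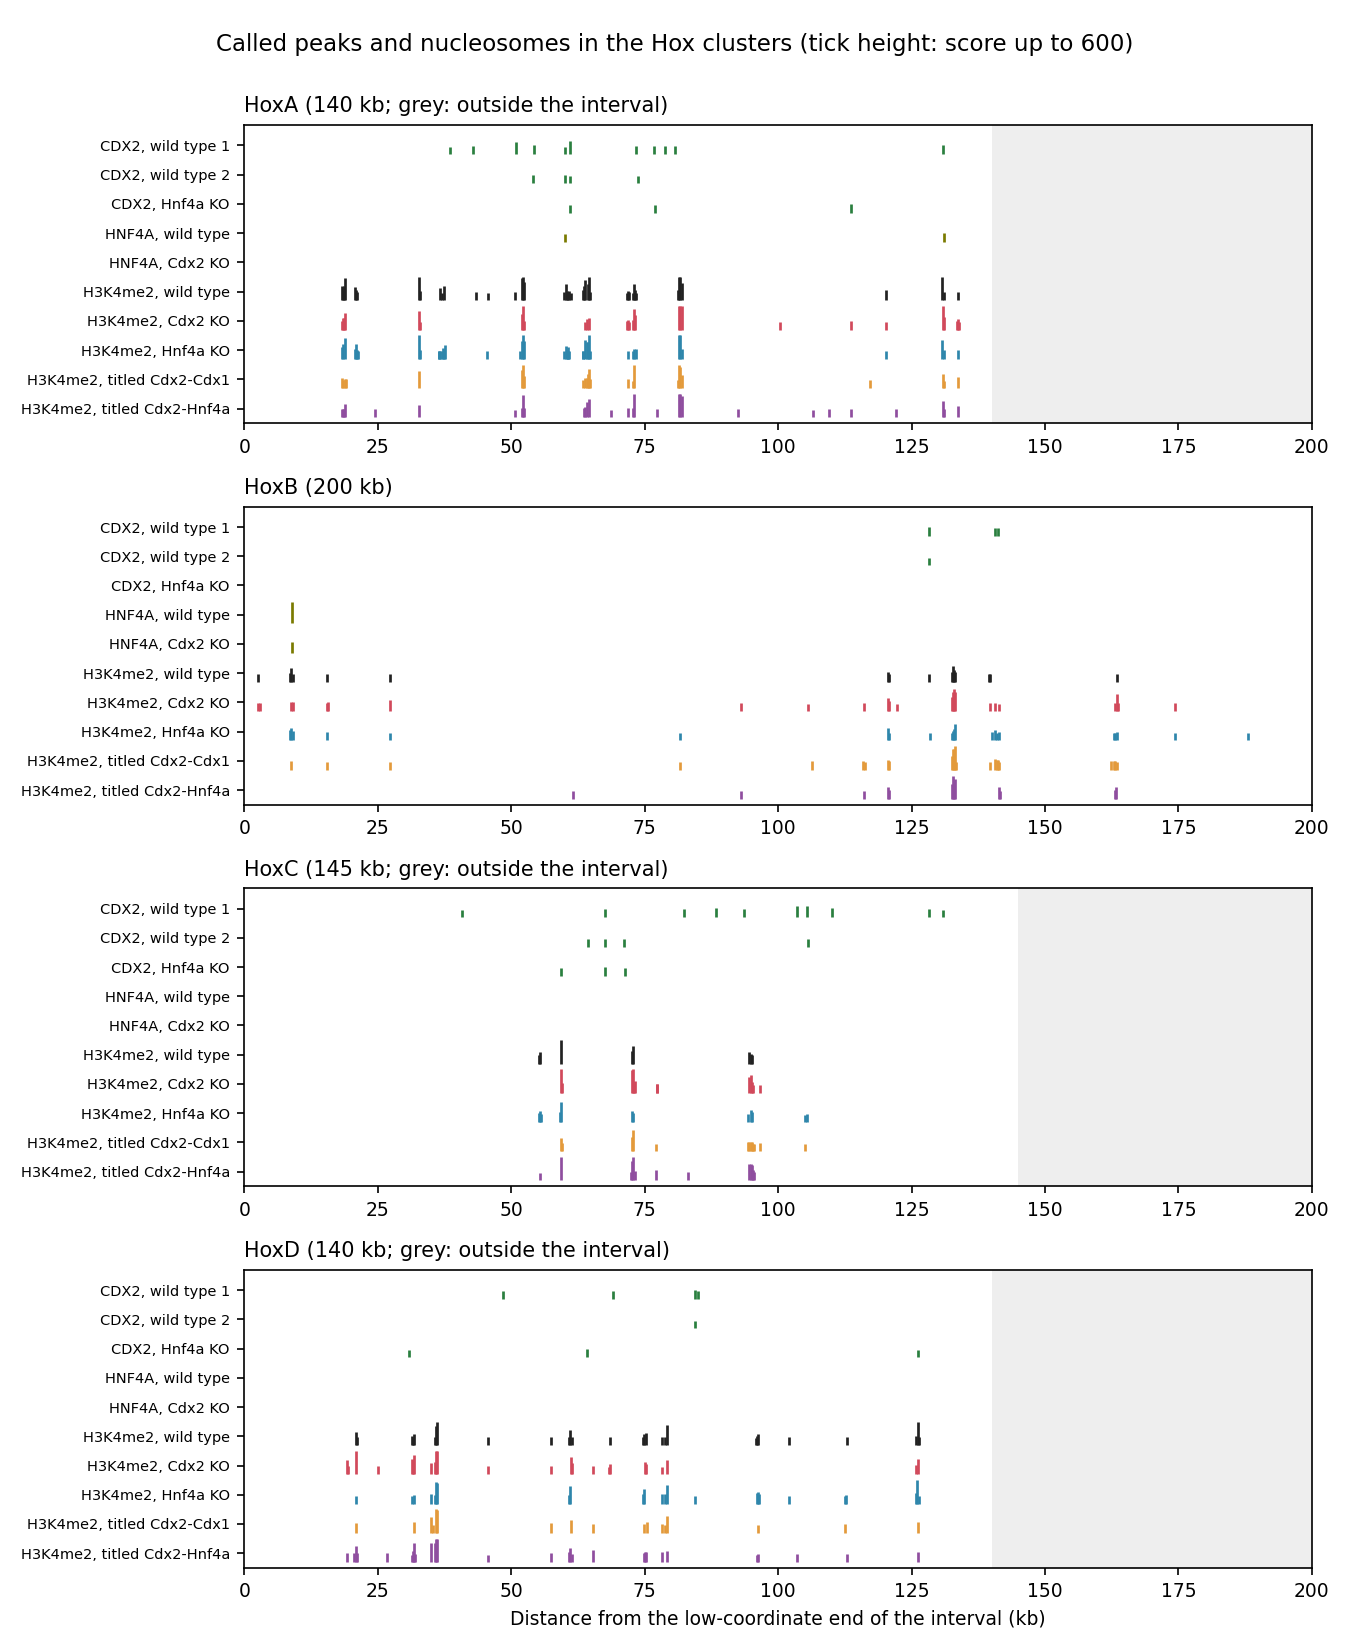
Peaks and nucleosomes of the 10 lists in each Hox cluster, placed by distance from the low-coordinate end of the interval (kb); tick height is the score, drawn up to a ceiling of 600. CDX2 peaks of wild-type library 1 number 11 in HoxA and 10 in HoxC, where the wild-type list holds 45 and 8 nucleosomes.

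CDX2 peaks were dense in HoxA and HoxC. Wild-type library 1 held 11 peaks in HoxA, 3 in HoxB, 10 in HoxC and 4 in HoxD. Across the genome, 0.0796% of tiles as long as HoxA had 11 or more peaks and 0.088% of tiles as long as HoxC had 10 or more. For HoxB the corresponding share was 12% and for HoxD 3.61%. Library 2 held 4 peaks in HoxA, 1 in HoxB, 4 in HoxC and 1 in HoxD, with 0.356%, 38.6%, 0.423% and 29.9% of tiles holding as many. In the Hnf4a knockout library the peaks numbered 3 in HoxA, 0 in HoxB, 3 in HoxC and 3 in HoxD, and 0.876%, 0.907% and 0.876% of tiles matched the counts of HoxA, HoxC and HoxD. HoxA and HoxC thus reached a count found in fewer than 1% of tiles in every CDX2 list, as did HoxD in the Hnf4a knockout. The windows 1 Mb away held 1 and 0 library 1 peaks beside HoxA, 6 and 5 beside HoxB, 4 and 0 beside HoxC and 0 and 8 beside HoxD. Together they held 24, against 28 in the clusters, but with 2 windows per cluster they cover 2 times the length. The number in HoxA over the mean of its windows was 22.0 (3.20 to 947), and in HoxC 5.0 (1.44 to 21.8). It was 0.545 (0.0977 to 2.07) in HoxB and 1.0 (0.220 to 3.73) in HoxD.

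The highest CDX2 scores of library 1 in HoxA were 245.7 at chr6:52150550-52151478, 221.9 at chr6:52140560-52141139, 111.8 at chr6:52220547-52221363, 110.3 at chr6:52144006-52144479 and 90.45 at chr6:52163019-52163622. The first ranked 324 and the second 421 of 12121 peaks. The 11 peaks ranged from 53.4 to 245.7 with a median of 81.05, against a list median of 70.42, and 10 of them lay in a stretch of 50 kb. In HoxC the 10 peaks scored from 53.5 to 203.8 with a median of 92.71. The highest were 203.8 at chr15:102840024-102840870 and 189.2 at chr15:102838275-102838778, followed by 109.0 at chr15:102844814-102845484, 108.4 at chr15:102823213-102823617 and 99.06 at chr15:102802400-102802847. The remaining 5 scored 86.36, 76.31, 68.3, 54.83 and 53.5. HoxB and HoxD held fewer peaks, with scores of 89.86, 60.96 and 60.28 in HoxB and of 120, 81.38, 66.78 and 60.81 in HoxD.

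In library 2 the HoxA peaks scored 77.07, 76.17, 66.93 and 65.78, and the HoxC peaks 64.4, 63.98, 53.05 and 51.01. The single HoxB and HoxD peaks scored 56.56 and 50.45. Of the 28 library 1 peaks in the clusters 7 overlapped a library 2 peak by 1 bp or more, against 13.1% of all library 1 peaks, and 7 of the 10 library 2 peaks overlapped library 1, against 21.4%. The 7 shared sites were 3 in HoxA, 2 in HoxC and 1 each in HoxB and HoxD, and they are picked out here after their values were seen.

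In the Hnf4a knockout the HoxA peaks scored 83.27 (chr6:52203473-52203932), 68.49 (chr6:52166707-52166976) and 52.57 (chr6:52150938-52151177). The HoxC peaks scored 101.5 (chr15:102802408-102802709), 51.51 (chr15:102806178-102806453) and 50.52 (chr15:102794230-102794424). In HoxD they scored 76.87 (chr2:74539060-74539241), 54.68 (chr2:74505738-74505915) and 54.22 (chr2:74601003-74601413). The HoxC peak of 101.5 ranked 235 of 5768 and lay on a site called in both wild-type libraries. None of the 3 HoxD peaks overlapped a wild-type CDX2 peak. Over the clusters, 3 of 28 library 1 peaks overlapped this list, against 8.6% of all library 1 peaks.

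HNF4A peaks were few in the clusters, as in most tiles of the genome, whose median count was 0. The windows 1 Mb to either side together held 32 wild-type peaks against 3 in the clusters, and 14 against 1 in the Cdx2 knockout. With 2 windows per cluster, they cover 2 times the length. They were uneven, with 1 and 0 wild-type peaks beside HoxA, 5 and 6 beside HoxB, 8 and 0 beside HoxC and 0 and 12 beside HoxD. The wild-type number in the cluster over the mean of its windows was 4.0 (0.208 to 236) in HoxA and 0.182 (0.00422 to 1.25) in HoxB. It was 0 (0 to 1.17) in HoxC and 0 (0 to 0.720) in HoxD. The wild-type list had 2 peaks in HoxA, 1 in HoxB and 0 in HoxC and HoxD, and 23.3% and 44.4% of tiles held as many as HoxA and HoxB. The HoxB peak, chr11:96048697-96049041, had a score of 533.3 and ranked 701 of 22376. It was called in the Cdx2 knockout with a score of 178.1, rank 1456 of 9676, as the only HNF4A peak of that library in the clusters; 29.2% of tiles held 1 or more. The HoxA peaks scored 121.6 at chr6:52220846-52221218 and 59.99 at chr6:52149989-52150217, and neither was called in the Cdx2 knockout list, so 1 of 3 wild-type peaks was overlapped there, against 30.1% of the whole wild-type list. Both overlapped CDX2 peaks of library 1, making 2 of 28 library 1 peaks in the clusters against 26.4% of the list.

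In wild type, H3K4me2 nucleosomes were denser in HoxA and HoxD than in HoxB and HoxC. HoxA had 45 nucleosomes (32.1 per 100 kb, interval 23.5 to 43.0), HoxD 28 (20.0 per 100 kb, 13.3 to 28.9), HoxB 16 (8.0 per 100 kb, 4.57 to 13.0) and HoxC 8 (5.52 per 100 kb, 2.38 to 10.9). The intervals of HoxA and HoxD overlapped, as did those of HoxB and HoxC, while the intervals of the first pair lay above those of the second. From a score of 100 upward, HoxD had 11 (7.86 per 100 kb, 3.92 to 14.1), and its interval then overlapped those of HoxB, with 6 (3.0 per 100 kb, 1.10 to 6.53), and HoxC, with 7 (4.83 per 100 kb, 1.94 to 9.95). Only HoxA, with 30 (21.4 per 100 kb, 14.5 to 30.6), stayed apart from the others. Tiles with as many made up 8.79% for HoxA, 35.7% for HoxB, 39.9% for HoxC and 17.7% for HoxD. Median wild-type scores were 155.9 in HoxA, 82.0 in HoxB, 198.8 in HoxC and 89.3 in HoxD, against 241.6 in the whole list.

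The windows 1 Mb away were uneven. They held 14 and 0 wild-type nucleosomes beside HoxA, 38 and 87 beside HoxB, 121 and 0 beside HoxC and 6 and 113 beside HoxD, on the low and high side. The number in the cluster over the mean of its flanks was 6.43 (3.47 to 12.7) for HoxA, 0.256 (0.142 to 0.432) for HoxB, 0.132 (0.0558 to 0.269) for HoxC and 0.471 (0.30 to 0.715) for HoxD. The HoxD value turned to 6.22 with windows shifted by 0.5 Mb and to 1.81 with the whole stretch to 1 Mb, and the HoxA value moved to 1.5 (0.996 to 2.25) and 2.78. HoxB and HoxC stayed below 1 under these choices of flank.

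**Figure D2:**
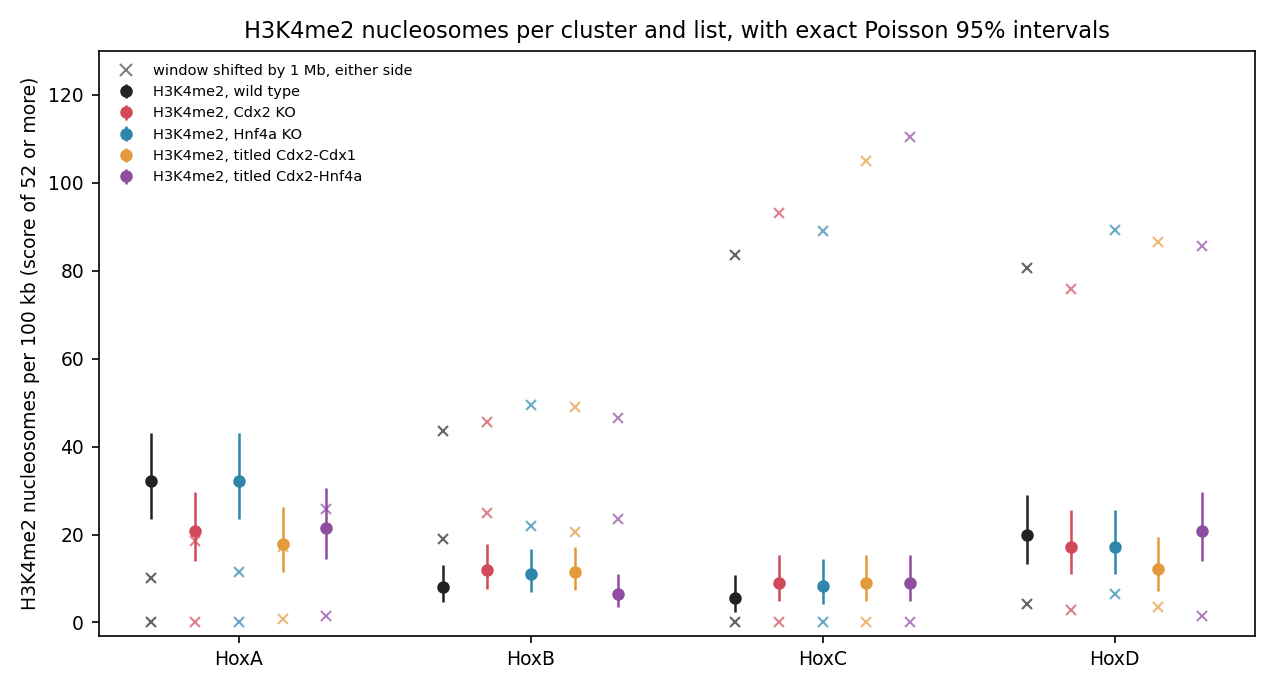
H3K4me2 nucleosomes per 100 kb (score of 52 or more) by cluster and list, as points with exact Poisson 95% intervals, and the shifted windows as crosses. HoxA stands at 32.1 per 100 kb in wild type and in the Hnf4a knockout, and at 20.7, 17.9 and 21.4 in the 3 lists lacking Cdx2.

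In HoxA the 3 lists lacking Cdx2 held fewer nucleosomes than wild type, and the Hnf4a knockout held the same number. The counts were 45 in wild type, 29 in the Cdx2 knockout, 45 in the Hnf4a knockout, 25 in the library titled Cdx2-Cdx1 and 30 in the library titled Cdx2-Hnf4a. Divided by the ratio of list lengths, HoxA had 0.616 (0.372 to 1.004), 0.981 (0.634 to 1.52), 0.484 (0.284 to 0.806) and 0.593 (0.361 to 0.962) times the wild-type number, in that order of knockout lists. The intervals of the Cdx2 knockout and the Hnf4a knockout thus included 1. The windows beside HoxA held 14 in wild type and 26, 16, 25 and 38 in the knockout lists, or 1.78 (0.894 to 3.68), 1.12 (0.513 to 2.48), 1.55 (0.778 to 3.24) and 2.41 (1.28 to 4.82) times after scaling. All 4 comparisons share 1 wild-type list, so its counting error moves them together. Counted from a score of 100 upward, the HoxA ratio for the library titled Cdx2-Cdx1 came to 0.546 (0.287 to 1.01), and without scaling that of the library titled Cdx2-Hnf4a was 0.667 (0.406 to 1.08), so both intervals then reached 1.

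HoxB had 16 nucleosomes in wild type and 24, 22, 23 and 13 in the knockout lists, given in the same order throughout. HoxC had 8 and then 13, 12, 13 and 13, and HoxD 28 and then 24, 24, 17 and 29. Only HoxD in the library titled Cdx2-Cdx1, at 0.529 (0.271 to 1.00), had an interval that ended at 1, and those of the other 11 ratios of these clusters spanned it. From a score of 100 upward, that HoxD ratio was 0.993 (0.401 to 2.48), and 5 of the 12 ratios lay on the other side of 1 than at 52. Set against the other 3 clusters together, the HoxA ratio was 0.549 (0.289 to 1.04), 0.897 (0.494 to 1.63), 0.545 (0.279 to 1.06) and 0.630 (0.331 to 1.19) times theirs. As these intervals reach 1, a difference of HoxA from the other clusters was not detectable at a score of 52 or more. From 100 upward this comparison was not made. There the ratios to wild type of HoxA, HoxB, HoxC and HoxD were 0.596, 1.57, 1.34 and 1.45 in the Cdx2 knockout. They were 0.884, 1.53, 1.02 and 1.39 in the Hnf4a knockout, and 0.546, 1.52, 0.910 and 0.993 in the library titled Cdx2-Cdx1. The library titled Cdx2-Hnf4a had 0.502 (0.260 to 0.940), 1.03, 1.14 and 1.53. Of these ratios, only its HoxA value had an interval that excluded 1. Over all 4 clusters the ratio to wild type was 0.887 (0.658 to 1.19), 1.04 (0.781 to 1.39), 0.70 (0.513 to 0.953) and 0.780 (0.576 to 1.05). The third was 0.804 (0.589 to 1.10) without scaling and 0.792 (0.524 to 1.19) at a score of 100 or more.

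A smaller share of wild-type positions was called again in the lists lacking Cdx2 in the clusters than over the genome. Of the 97 wild-type nucleosomes in the clusters, 61 (62.9%, Clopper-Pearson interval 52.5 to 72.5) were overlapped by a nucleosome of the Cdx2 knockout list, against 79% over the genome and 80.7% in the flanks. In the Hnf4a knockout it was 74 (76.3%, 66.6 to 84.3) against 78.3% over the genome. The library titled Cdx2-Cdx1 had 51 (52.6%, 42.2 to 62.8) against 75.5%, and the library titled Cdx2-Hnf4a 55 (56.7%, 46.3 to 66.7) against 72.7%. The intervals of the 3 lists lacking Cdx2 thus lay below their genome shares, and that of the Hnf4a knockout included it.

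Nucleosome scores differed between the clusters and the genome, and the share overlapped was lower at low scores in every list, so the shares were also taken by wild-type score. Among wild-type nucleosomes scoring from 52 to 100, 51.2% of the clusters' were overlapped in the Cdx2 knockout against 51.1% of the genome's. From 100 to 200 the shares were 60% (36.1 to 80.9) and 73.3%, and above 200 they were 79.4% (62.1 to 91.3) and 93.0%, so only the highest class had an interval below the genome. In the library titled Cdx2-Cdx1 it was the lowest class, with 30.2% (17.2 to 46.1) against 50.8%; the middle class had 60% against 67.9% and the highest 76.5% (58.8 to 89.3) against 88.9%. The library titled Cdx2-Hnf4a had 39.5%, 50% and 82.4% against 46.2%, 63.1% and 87.6%, each within its interval. The Hnf4a knockout had 60.5%, 85.0% and 91.2% against 50.6%, 74.0% and 91.6%. Within a score class the genome share therefore lay outside the clusters' interval in 2 of the 12 comparisons, with neighbouring nucleosomes counted as independent.

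**Figure D3:**
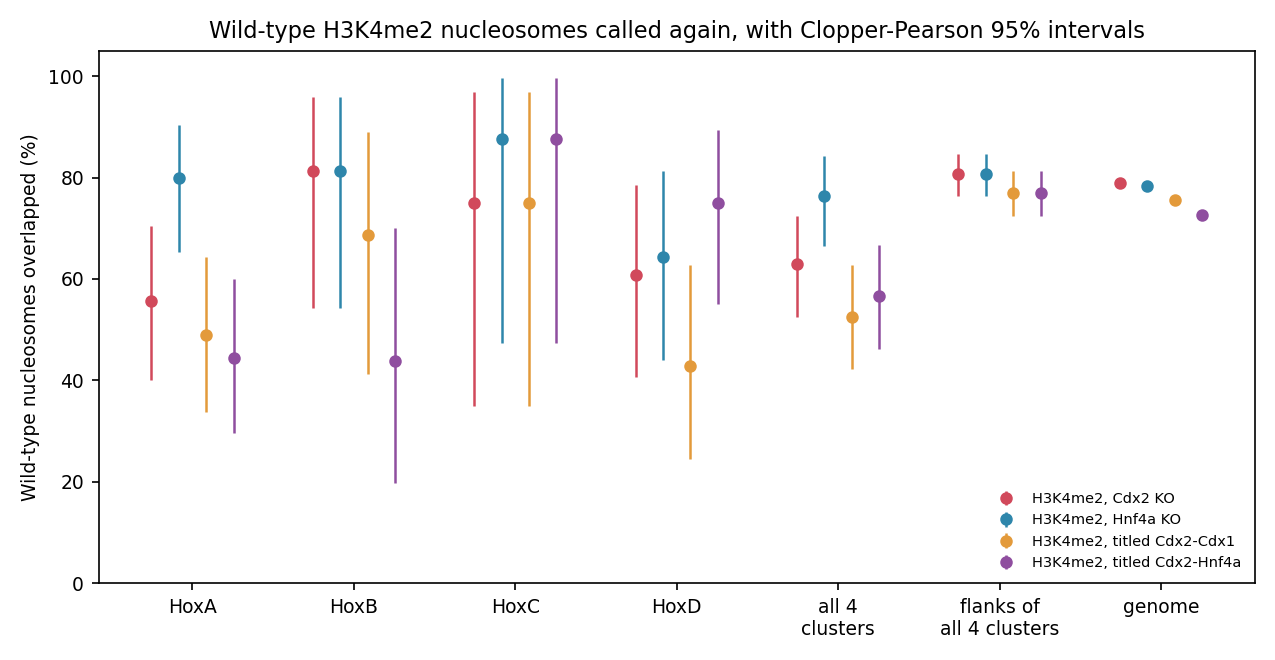
Share of wild-type H3K4me2 nucleosomes overlapped by a nucleosome of each knockout list (%), by region, with Clopper-Pearson 95% intervals. Over all 4 clusters the share is 62.9%, 52.6% and 56.7% in the lists lacking Cdx2 and 76.3% in the Hnf4a knockout.

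HoxA held 45 of the 97 wild-type positions, or 46.4%. Of these 45 wild-type nucleosomes, 25 (55.6%, 40.0 to 70.4) were overlapped in the Cdx2 knockout, 36 (80.0%, 65.4 to 90.4) in the Hnf4a knockout, 22 (48.9%, 33.7 to 64.2) in the library titled Cdx2-Cdx1 and 20 (44.4%, 29.6 to 60) in the library titled Cdx2-Hnf4a. Of the positions not called again, 20 of 36 (55.6%, 38.1 to 72.1) in the Cdx2 knockout lay in HoxA, as did 9 of 23, 23 of 46 and 25 of 42 (59.5%, 43.3 to 74.4) in the other lists. The intervals included HoxA's part in all positions, which itself counts those not called again. In HoxB, HoxC and HoxD together, 69.2% (54.9 to 81.3), 73.1%, 55.8% and 67.3% (52.9 to 79.7) were overlapped. From a score of 100 upward, the HoxA shares were 46.7% (28.3 to 65.7), 66.7%, 46.7% and 46.7%. Those of the other clusters together were then 83.3% (62.6 to 95.3), 75.0%, 70.8% and 75.0%. A difference between these shares was not tested. The overlapped number in HoxB was 13, 13, 11 and 7 of 16, in HoxC 6, 7, 6 and 7 of 8 and in HoxD 17, 18, 12 and 21 of 28.

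The fullest wild-type window of 5 kb in any cluster, chr6:52150001-52155000 in HoxA, held 11 nucleosomes in wild type, 3 in the Cdx2 knockout, 12 in the Hnf4a knockout, 6 in the library titled Cdx2-Cdx1 and 4 in the library titled Cdx2-Hnf4a. It also held 2 CDX2 peaks of each wild-type library. Its highest nucleosome score was 694.6 in wild type, 817.2 in the Hnf4a knockout, and 197.0, 439.5 and 429.0 in the lists lacking Cdx2. Of the next fullest HoxA windows, chr6:52160001-52165000 held 7, 6, 4, 3 and 3 in the same order, and chr6:52105001-52110000 held 4, 4, 3, 4 and 4. The highest scores in chr6:52160001-52165000 were 354.5, 494.5, 148.1, 746.5 and 938.4, so there the lists lacking Cdx2 exceeded wild type. In chr6:52105001-52110000 they were 561.6, 355.9, 522.8, 132.8 and 240.3. In a further pair of windows no nucleosome was called in the Cdx2 knockout and the library titled Cdx2-Cdx1, namely chr6:52110001-52115000 with 3, 0, 4, 0 and 1, and chr6:52125001-52130000 with 3, 0, 7, 0 and 0. The first held no CDX2 peak in any list and the second 1 peak of library 1. At the far end, chr6:52220001-52225000 held 3, 5, 3, 3 and 3.

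The named windows of HoxB, HoxC and HoxD held at most 4 wild-type nucleosomes. In HoxB, chr11:96170001-96175000 held 4, 4, 4, 5 and 4, and chr11:96045001-96050000, the window of the strong HNF4A peak, held 3, 2, 3, 1 and 0. The window chr11:96180001-96185000, with 2 CDX2 peaks of library 1, held 0 in wild type and 2, 4, 4 and 2 in the knockouts. In HoxC, chr15:102790001-102795000 held 3, 2, 5, 2 and 2 and chr15:102805001-102810000 held 2, 4, 2, 2 and 4. In HoxD, chr2:74550001-74555000 held 4, 4, 3, 4 and 4, and chr2:74570001-74575000 held 3, 0, 3, 1 and 2.

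Of the 5 kb windows in the clusters, 17 held 3 or more wild-type nucleosomes (8 in HoxA, 2 in HoxB, 1 in HoxC and 6 in HoxD). That is 17 of 125 windows, against 6.21% of windows in the genome. In the Cdx2 knockout 3 of the 17 held none, against 2.34% of such windows in the genome. The library titled Cdx2-Cdx1 had 2 (2.3% in the genome), the library titled Cdx2-Hnf4a 2 (5.32%) and the Hnf4a knockout 0 (0.724%). With a minimum of 4 nucleosomes, met by 7 of the 17, these counts were 0 in every list, so every emptied window held 3 in wild type. The genome shares were not matched for the number of nucleosomes in a window. In the other direction, windows with 3 or more in the knockout and none in wild type numbered 0 of 15 in the Cdx2 knockout (2.3% in the genome), 1 of 17 in the Hnf4a knockout (1.1%), 1 of 13 in the library titled Cdx2-Cdx1 (6.27%) and 0 of 14 in the library titled Cdx2-Hnf4a (7.58%).

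Of the 125 windows, 39 (31.2%, 23.2 to 40.1) held any wild-type nucleosome at a score of 52 or more, against 11.8% over the genome. The rest lay partly in long runs without a call. In HoxC the first 55 kb, chr15:102735001-102790000, was empty in all 5 lists. The longest empty run of wild type was 35 kb in HoxA (chr6:52175001-52210000) and 90 kb in HoxB (chr11:96070001-96160000). In the Cdx2 knockout a run of 45 kb was empty in HoxD (chr2:74555001-74600000). In wild type, windows of that stretch held only 3, 1 and 1 nucleosomes and the rest none. How often runs of these lengths occur over the genome was not counted.

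The adjacent CDX2 sites in the middle of HoxA had no H3K4me2 call in the lists lacking Cdx2. They are chr6:52149677-52150427, with scores of 58.32 and 76.17 in libraries 1 and 2, and chr6:52150550-52151478, with 245.7 and 65.78, separated by 122 bp in library 1. As a pair they were chosen after their values were seen. How many CDX2 sites elsewhere in the genome have wild-type calls but none in these lists was not counted. The first overlaps the HNF4A peak of 59.99, and the second overlaps the Hnf4a knockout CDX2 peak of 52.57. Within 1 kb of the centre of either site, 6 nucleosomes were called in wild type (scores from 65.3 to 368.6) and 6 in the Hnf4a knockout (77.2 to 239.3). None was called in the Cdx2 knockout or in either double knockout. The lists as deposited added none, but they reach down only to scores of 51.3 (Cdx2 knockout), 50.4 (titled Cdx2-Cdx1) and 50.6 (titled Cdx2-Hnf4a). Weaker nucleosomes at these sites could therefore not be looked for. Nucleosomes 2 to 4 kb beyond the centre of the second site were called in every list, with 6 in wild type, 3 in the Cdx2 knockout, 7 in the Hnf4a knockout, 6 in the library titled Cdx2-Cdx1 and 4 in the library titled Cdx2-Hnf4a. Those 8 to 10 kb on the low side numbered 3, 3, 4, 3 and 3.

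**Figure D4:**
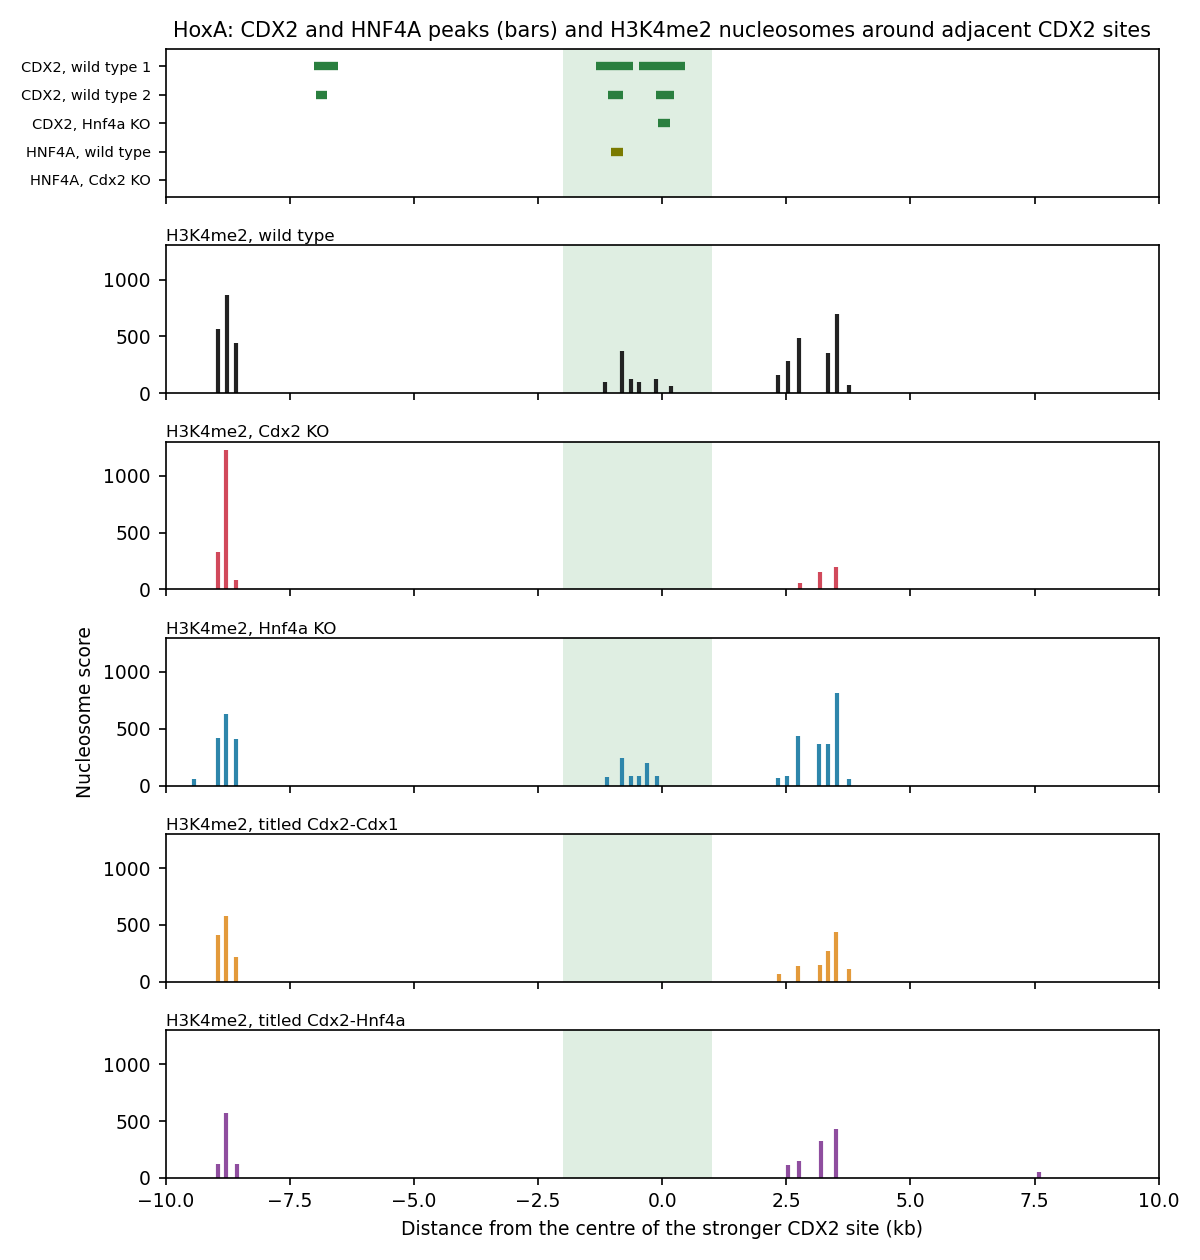
Factor peaks (bars, top) and H3K4me2 nucleosomes (score, vertical axis) in 5 lists within 10 kb of the centre of the stronger of the adjacent HoxA CDX2 sites (kb). The shaded stretch from -2 to 1 kb holds 6 nucleosomes in wild type, 6 in the Hnf4a knockout and 0 in the 3 lists lacking Cdx2.

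The other sites called in both CDX2 wild-type libraries had few or no nucleosomes in any list. At chr6:52144006-52144479 (scores of 110.3 and 77.07) and chr15:102802400-102802847 (99.06 and 53.05), no list had a nucleosome of score 52 or more within 1 kb. The HoxB site chr11:96168095-96168467 (89.86 and 56.56) had 1 in wild type, 1 in the Hnf4a knockout and 0 in the other lists. The HoxC site chr15:102840024-102840870 (203.8 and 63.98) had 0 in wild type, 2 in the Hnf4a knockout and 1 in the library titled Cdx2-Cdx1. The HoxD site chr2:74559106-74559600 (120 and 50.45) had 1, in the Hnf4a knockout.

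Over all wild-type CDX2 peaks of HoxA, 17 wild-type nucleosomes lay within 1 kb of a peak centre and 28 farther away. The near ones numbered 6 in the Cdx2 knockout, 14 in the Hnf4a knockout, 6 in the library titled Cdx2-Cdx1 and 7 in the library titled Cdx2-Hnf4a, which is 0.337 (0.109 to 0.897), 0.808 (0.369 to 1.74), 0.307 (0.0992 to 0.817) and 0.366 (0.128 to 0.929) times wild type after scaling. The distant ones numbered 23, 31, 19 and 23, or 0.785 (0.432 to 1.41), 1.09 (0.630 to 1.88), 0.591 (0.312 to 1.10) and 0.731 (0.402 to 1.32) times. Near CDX2 peaks of the whole genome the ratios were 0.806, 1.03, 0.802 and 0.702, which lie within the HoxA intervals. Without the adjacent sites the HoxA counts near CDX2 were 11 in wild type and 6, 8, 6 and 7 in the knockout lists, and every interval of the ratio then included 1. The ratio for the whole of HoxA without those nucleosomes was 0.711 (0.424 to 1.18), 0.981 (0.613 to 1.57), 0.558 (0.324 to 0.946) and 0.684 (0.411 to 1.13). From a score of 100 upward, the near ratios of the lists lacking Cdx2 were 0.627 (0.184 to 1.97), 0.304 (0.0528 to 1.22) and 0.394 (0.0886 to 1.41), and each interval included 1. These recounts were chosen after seeing the data. With the CDX2 peaks of library 2 alone, 10 wild-type nucleosomes were near and 2 in the Cdx2 knockout, a ratio of 0.191 (0.0204 to 0.897). In HoxB, HoxC and HoxD together, 2 wild-type nucleosomes lay near a CDX2 peak, and 4, 9, 7 and 3 in the knockout lists.

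All CDX2 peaks of library 1 in HoxC lacked a wild-type H3K4me2 nucleosome within 1 kb. Over the clusters, 18 of 28 peaks (64.3%, 44.1 to 81.4) had none at that distance, against 42.5% of the whole list. By cluster it was 3 of 11 in HoxA, 2 of 3 in HoxB, 10 of 10 in HoxC (interval from 69.2%) and 3 of 4 in HoxD. Within 2.5 kb, a distance chosen after seeing the data, 13 of 28 had none (46.4%, 27.5 to 66.1) against 37.6% of the list, with 1 in HoxA, 0 in HoxB, 9 in HoxC and 3 in HoxD. For library 2 it was 6 of 10 against 72.7% of the list, for the Hnf4a knockout list 5 of 9 against 73.5%, and for the wild-type HNF4A list 0 of 3 against 23.2%.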

How the data were processed

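The lists hold called features, not reads: 5 lists of factor peaks (position and score) and 5 of H3K4me2 nucleosomes. Both scores were deposited by the authors, and the nucleosome score is 10 times a -log10 p-value per the file headers. Peak names carry the word MACS. The meaning of the factor score is not given in the sources used here, nor is any aligner, caller version or control. Coordinates are mm9 per the submitters' processing notes, printed counting from 1. The deposited Hnf4a knockout list reached down to a score of 1.7 and the other 4 nucleosome lists to between 50.1 and 51.3, so 52 was used as a common minimum.

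Python 3.11.15 with numpy 2.4.6, pandas 2.3.3 and scipy 1.17.1 was used, and figures were drawn with matplotlib 3.10.9. Nucleosomes were assigned by their centre. Factor peaks were assigned to clusters and shifted windows by overlap, and to genome tiles and 5 kb windows by centre. Every factor peak counted in a cluster also had its centre inside it. Overlap meant 1 bp or more, windows were 5 kb, and genome tiles had the length of each cluster. Ratios to wild type were divided by the ratio of list lengths. Intervals were exact Poisson, exact binomial for ratios and Clopper-Pearson for shares, and the code was tested on simulated data.

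Peaks were named in full where a list had 10 or fewer in a cluster and otherwise as the 5 highest scores. Windows were named as the 3 fullest in wild type and, for each knockout list, from the 2 largest falls and the 2 largest rises. Members, lists and rules were chosen with earlier results of these data known. No mm9 annotation or genome was given, so the H3K4me2 state of gene starts, related genes and cell type markers was not used here.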

Additional observations from a re-analysis of the deposited data

How the results depend on the processing

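Of 280 alternative values, 2 turned the direction of a ratio whose interval excluded 1. Of 104 alternative ratios to wild type, 7 crossed 1, all from ratios whose interval included it, and 5 of these at a score of 100 or more (HoxD in the Cdx2 knockout 1.45, in the Hnf4a knockout 1.39 and in the library titled Cdx2-Hnf4a 1.53, HoxB in that library 1.03, HoxC in the library titled Cdx2-Cdx1 0.910). The scaled HoxA ratios of the 3 lists lacking Cdx2 stayed below 1 in every alternative run, but these runs recount the same lists. For the Cdx2 knockout the interval included 1 in the main run (upper end 1.004) and without scaling (1.051). It also did so with the lists as deposited (1.011), at a score of 100 or more (1.093) and without the adjacent CDX2 sites (1.179). It ended below 1 when scaled by covered length (0.983) and with lists of equal length (0.988). With a minimum score of 100, the wild-type number was 6 in HoxB and 11 in HoxD, the ratio to the flanks 0.12 in HoxB and 0.25 in HoxD, and the factor peaks in the clusters 9 for CDX2 wild-type library 1, 0 for library 2 and 1 for CDX2 in the Hnf4a knockout. The choice of flank turned HoxD from 0.471 to 6.22 (shifted by 0.5 Mb) and 1.81 (whole stretch), and moved HoxA to 1.5 and 2.78. The overlapped share in the Hnf4a knockout was 87.9% with the lists as deposited, since that list reaches to lower scores. Emptied windows numbered 0 with a minimum of 4 in the Cdx2 knockout and both double knockouts, 1 in the Hnf4a knockout with a minimum of 2, and 1 in each double knockout with 10 kb windows. Leaving out 1 wild-type CDX2 library gave 10 to 28 peaks in the clusters, and HoxA ratios near CDX2 of 0.191 to 0.337 (Cdx2 knockout), 0.0871 to 0.307 (titled Cdx2-Cdx1) and 0.0890 to 0.366 (titled Cdx2-Hnf4a). Alternatives chosen after seeing the data were the removal of the adjacent HoxA sites, wider distances from CDX2 peaks, other score limits for nucleosomes near them and the shares by cluster. Marking of gene starts was not run. No paired analysis was possible because the groups share no replicate numbers beyond 1 and each H3K4me2 group has 1 library. The causes of these moves were not tested, apart from the lower scores named above.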

Other observations

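The window on the low side of HoxA, 1 Mb away, held 14 nucleosomes in wild type, 26 in the Cdx2 knockout, 16 in the Hnf4a knockout, 24 in the library titled Cdx2-Cdx1 and 36 in the library titled Cdx2-Hnf4a. Over both windows beside HoxA, the scaled ratio to wild type of the library titled Cdx2-Hnf4a was 2.41 (1.28 to 4.82), while in HoxA itself it was 0.593 (0.361 to 0.962).

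In the deposited Hnf4a knockout list, 5 nucleosomes lay within 1 kb of the HoxD site called in both wild-type CDX2 libraries, of which 1 reached a score of 52. At the HoxC site chr15:102840024-102840870 there were 4, of which 2 reached it.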
